A study of Schizosaccharomyces pombe with 8 samples.

Results

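The 6 fission yeast genes described here, aco1, gnd1, cys11, cut6, erg12 and elo1, encode enzymes of central, sulfur and lipid metabolism. They hold 10 of the 5144 annotated introns for which spliced and unspliced reads were counted. The genes were picked because earlier results of the same table showed most reads at their introns unspliced in splicing mutants, so the difference between mutants and wild type that follows describes the choice and was not used as a test. Every annotated intron lying in the 6 genes was taken, whatever its values. Of the 10 introns, 9 had 20 reads or more in each library and entered the fits over 2514 introns of 1363 genes. The cut6 intron, with 14 reads in WT replicate 1, did not.

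Poly(A) RNA came from 6 Schizosaccharomyces pombe strains with temperature-sensitive splicing factors, 1 library each, and from the wild type (WT), strain ED666, with 2 libraries. The mutants were prp10-R379H (strain ts102B12; an SF3b subunit of the U2 snRNP), prp22-V801M;G917R (ts103A10; the helicase that lets spliced mRNA go), cwf22-G191D (ts104O20; a protein of the assembled spliceosome), sap114-A152V (ts105M13; an SF3a subunit of the U2 snRNP), prp1-G705D (ts106A18; a tri-snRNP protein) and ntr1-W597R (ts106C01; a factor that helps to take spent spliceosomes apart). They are called by their gene names below. The table holds no bases, so the alleles themselves were not checked here. All cultures, WT included, were grown in YPD at 25 °C and moved to 37 °C for 15 minutes, so no library stands for a culture left at 25 °C. Each mutant is 1 strain with 1 library, and nothing in the labels says whether the WT libraries came from separate cultures. The p-values therefore measure only the spread between these libraries, which may be technical, and strain and library cannot be told apart. Reads at annotated introns came to between 809751 (prp10) and 1858792 (ntr1) per mutant library, against 420473 and 846804 in the WT libraries.

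A spliceosome removes an intron by joining its 5′ splice site to a branch-point adenosine and then cutting at the 3′ splice site. Most introns of fission yeast are short, and an mRNA that keeps one usually meets a stop codon early in its reading frame. The enzymes sit in different pathways. Aconitase (aco1) turns citrate into isocitrate in the citric acid cycle. 6-phosphogluconate dehydrogenase (gnd1) makes NADPH in the pentose phosphate pathway. Cysteine synthase (cys11) builds sulfide into cysteine, acetyl-CoA carboxylase (cut6) commits acetyl-CoA to fatty acid synthesis, fatty acid elongase (elo1) lengthens acyl chains, and mevalonate kinase (erg12) acts on the way to ergosterol. The annotation gives the symbol elo1 to SPAC1639.01C, and that locus is meant throughout.

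All 10 introns interrupt coding sequence, and 9 of the 10 lie within the first 154 coding nucleotides of their gene, against 45.6% of the 2451 tested coding introns, whose median is 171. The exception is elo1 intron 2, with 486 coding nucleotides before it. If kept, each of the 10 brings a stop codon into the reading frame within its first 42 nucleotides, which 71.3% of the tested coding introns do. The limits of 154 and 42 nucleotides were taken from the 10 introns themselves, so the shares over all introns are no test of enrichment. Of the 9 introns, 4 belong to gnd1. These positions describe the 10 introns and say nothing of why they were retained. The map of exons and introns shows the short coding stretch before each long intron.

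**Figure D1:**
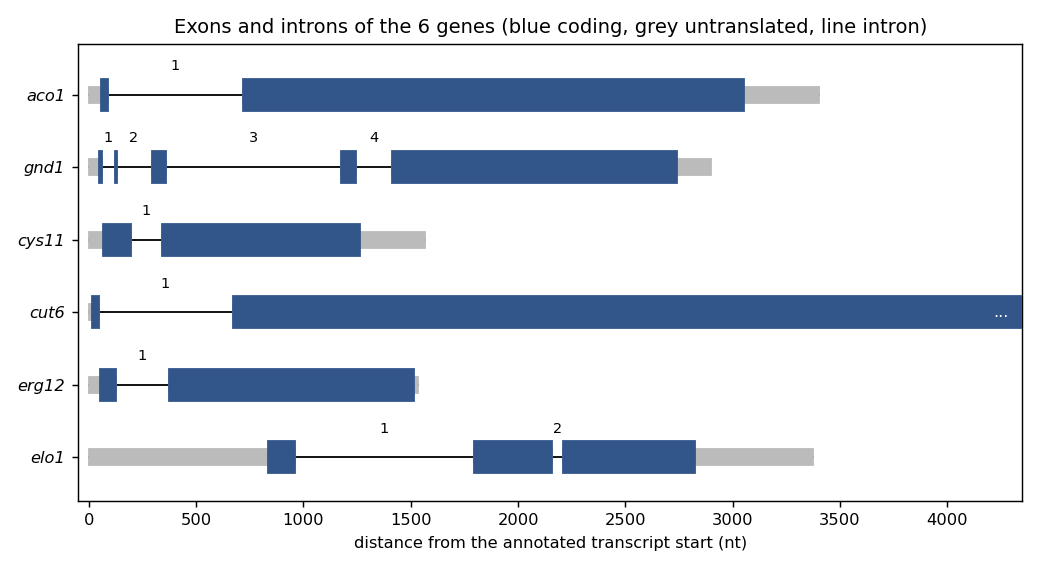
Exons (boxes) and introns (lines) of the 6 genes, drawn to scale by distance from the annotated transcript start in nucleotides, with intron numbers above. Coding sequence is blue and untranslated exon grey, and cut6 runs on past the right edge. The 4 introns of gnd1 crowd the start of the gene, with an exon 2 of 5 nucleotides between introns 1 and 2.

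The sequences of the intron ends are printed because they hold the signals that the spliceosome reads, and because the presence of a branch-like motif in them is referred to below. They are RefSeq sequence of assembly ASM294v3, read 5′ to 3′ on the gene's strand. Introns of up to 150 nucleotides are whole, and only the last 60 nucleotides of longer ones are given. Capitals mark the 5′ hexamer (whole introns only), the last match on the sense strand, within the last 60 nucleotides, to a branch-like motif (CTNAN with A or G as the third base and C or T as the fifth), and the final 3 bases.
aco1 intron 1, chrI:3050746-3050805 (minus): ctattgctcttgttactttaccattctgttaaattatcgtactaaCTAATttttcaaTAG
gnd1 intron 1, chrII:230385-230445 (plus): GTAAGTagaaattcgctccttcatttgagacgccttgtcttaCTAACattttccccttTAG
gnd1 intron 2, chrII:230556-230615 (plus): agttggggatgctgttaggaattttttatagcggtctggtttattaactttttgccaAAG
gnd1 intron 3, chrII:231437-231496 (plus): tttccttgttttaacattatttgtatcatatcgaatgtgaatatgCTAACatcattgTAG
gnd1 intron 4, chrII:231677-231736 (plus): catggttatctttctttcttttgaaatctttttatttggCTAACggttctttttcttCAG
cys11 intron 1, chrII:848118-848262 (plus): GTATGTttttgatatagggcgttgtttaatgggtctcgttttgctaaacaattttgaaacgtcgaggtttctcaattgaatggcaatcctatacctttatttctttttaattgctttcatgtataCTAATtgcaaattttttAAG
cut6 intron 1, chrI:1252808-1252867 (minus): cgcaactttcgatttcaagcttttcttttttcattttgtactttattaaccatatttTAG
erg12 intron 1, chrI:195259-195318 (minus): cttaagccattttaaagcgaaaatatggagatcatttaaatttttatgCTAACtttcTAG
elo1 intron 1, chrI:252753-252812 (minus): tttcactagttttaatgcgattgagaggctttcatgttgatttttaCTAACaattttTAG
elo1 intron 2, chrI:252338-252391 (minus): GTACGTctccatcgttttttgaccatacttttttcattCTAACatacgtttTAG

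This motif was found in 8 of the 10 introns, and in 78% of all tested introns. The introns without a match are gnd1 intron 2 and cut6 intron 1, which says only that those letters are not in the window. In aco1 the marked motif overlaps a second match just before it. From the A of the motif to the end of the intron there were 8 to 17 nucleotides, against a median of 11 over the tested introns. The 5′ hexamer was GTAAGT in 4 introns (28.5% of all tested introns), GTATGT in 3 (22.4%) and GTACGT in elo1 intron 2 (5.45%). The remaining hexamers are rarer among tested introns, GTAATG in gnd1 intron 4 (0.636%) and GTGAGT in elo1 intron 1 (1.67%). The introns ended in TAG in 7 cases, in AAG in 2 and in CAG in 1.

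The 6 enzyme genes showed the same direction at every intron. In all 10 introns every mutant had a larger unspliced share, that is unspliced reads over spliced plus unspliced reads, than both WT libraries. This held for 98.6% of all 2514 tested introns too, so it does not set the 6 genes apart. At all 9 tested introns the mutants as a class were called higher than WT by edgeR's quasi-likelihood test with Benjamini-Hochberg adjustment, against a background of 96.9%. The genes were chosen on this contrast, and nothing is read from the count. The median unspliced share of the 9 introns was 85.9% in the mutants and 5.56% in WT, while over all tested introns it was 65.3% in the mutants and 5.27% in WT. In log2 odds of an unspliced read, the median change was 6.91 for the 9 introns and 4.94 for all.

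**Figure D2:**
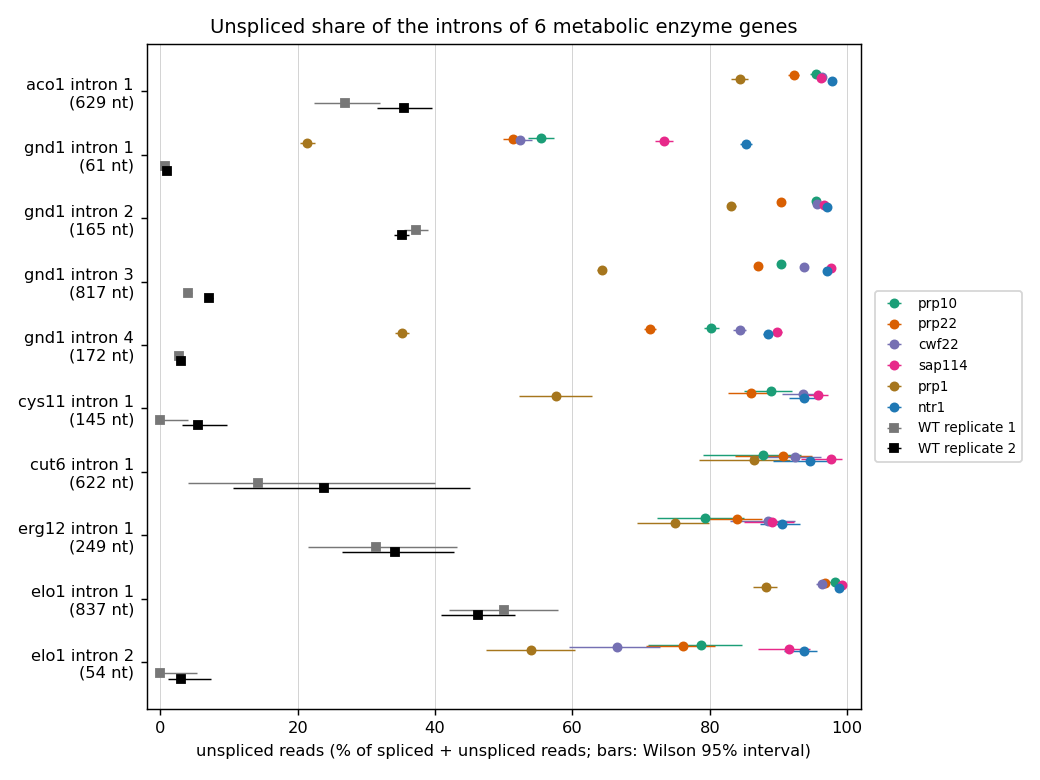
Unspliced share of the 10 introns, as a percentage of spliced plus unspliced reads, in the 6 mutant libraries (circles) and the 2 WT libraries (squares), with Wilson 95% intervals for counting error. The circles lie to the right of the squares at every intron, prp1 is the leftmost circle in all 10, and the squares spread from 0% at cys11 to 50% at elo1 intron 1.

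The gene gnd1, with 4 introns, was the most deeply read of the 6, with 5265 to 52490 reads at its longest intron, number 3 of 817 nucleotides (locus SPBC660.16, chrII:230680-231496). The unspliced share of gnd1 intron 3 was 97.1% in ntr1, 97.7% in sap114, 93.8% in cwf22, 87.0% in prp22, 90.3% in prp10 and 64.2% in prp1, against 4.03% and 7.10% in WT. In reads, ntr1 had 50983 unspliced and 1507 spliced, while WT replicate 2 had 738 unspliced and 9660 spliced. The mutants lay far above WT and prp1 stood lowest. The edgeR change was 7.73 ± 1.28 in log2 odds (SE), given as a description.

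Intron 2 of gnd1, 165 nucleotides long, was unlike its neighbours in WT. Its unspliced share was 97.1% in ntr1, 96.6% in sap114, 95.7% in cwf22, 90.4% in prp22, 95.5% in prp10 and 83.1% in prp1, against 37.2% and 35.1% in WT. More than 1 in 3 reads at this intron was thus unspliced in both WT libraries, where the other 3 introns of the gene stayed at or below 7.10%. Of the 4 introns of gnd1 it alone has no match to the branch motif in its last 60 nucleotides, and it follows the exon of 5 nucleotides. Whether so short an exon alters the counting of reads around it was not tested.

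The shortest intron of gnd1, number 1 with 61 nucleotides (chrII:230385-230445), was the least retained of the 10. Its unspliced share was 85.3% in ntr1, 73.3% in sap114, 52.4% in cwf22, 51.3% in prp22, 55.5% in prp10 and 21.4% in prp1, against 0.681% and 0.952% in WT. The mutants spanned a wide range here, with prp1 the only one in which most reads were spliced, and all 6 lay above both WT libraries. Intron 4, of 172 nucleotides (chrII:231565-231736), had 88.4% in ntr1, 89.8% in sap114, 84.4% in cwf22, 71.3% in prp22, 80.2% in prp10 and 35.2% in prp1, against 2.71% and 3.03% in WT. As at intron 1, prp1 lay below 50% and the other 5 mutants above it.

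Unspliced reads within gnd1 were set beside intron length. Intron 3 is 13.4 times as long as intron 1 and had 8.38 to 13.1 times as many unspliced reads in the mutants and 11.8 and 13.2 times in WT. A spliced count comes from 1 junction, so shares of introns of unlike length may not be on 1 scale, and the part of length in them was not tested. For intron 2 the ratio to intron 1 was 2.33 to 9.40 in the mutants and 42.3 and 59.7 in WT, against a length ratio of 2.70. Per nucleotide, intron 2 thus had 0.863 to 3.47 times the unspliced reads of intron 1 in the mutants, and 15.6 and 22.1 times in WT. This ratio was higher in both WT libraries than in any mutant. The same order held for intron 4, at 0.540 to 1.07 in the mutants and 2.38 and 1.89 in WT. At intron 3 the groups overlapped. These ratios share the unspliced reads of intron 1 as denominator, only 18 and 56 in WT. How common such an order is among other introns was not counted. Among the mutants the intron 2 ratio ran from 0.863 in ntr1, which is no excess, to 3.47 in prp1. Intron 4, although slightly longer than intron 2, had fewer unspliced reads in every library, 1.52 to 3.01 times those of intron 1 in the mutants and 6.72 and 5.32 times in WT.

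Intron 1 of aco1, 629 nucleotides (locus SPAC24C9.06C, chrI:3050746-3051374), follows a coding stretch of 33 nucleotides. The unspliced share was 97.7% in ntr1, 96.2% in sap114, 96.3% in cwf22, 92.2% in prp22, 95.4% in prp10 and 84.4% in prp1, against 26.9% and 35.4% in WT. Averages were 93.7% ± 4.94 in the mutants and 31.2% ± 6.05 in WT (SD, n = 6 and n = 2). In reads as counted, at unlike library depths, there were 2647 to 6559 unspliced and 151 to 491 spliced per mutant library, against 86 and 197 unspliced and 234 and 359 spliced in WT.

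The elongase gene elo1 has the highest share of the set in mutants and in WT at its intron 1, of 837 nucleotides (locus SPAC1639.01C, chrI:252753-253589). There the unspliced share was 98.8% in ntr1, 99.3% in sap114, 96.3% in cwf22, 96.8% in prp22, 98.2% in prp10 and 88.1% in prp1, against 50% and 46.2% in WT. WT thus left about as many reads unspliced as spliced, 74 and 74 in replicate 1. Intron 2 of the same gene, only 54 nucleotides long (chrI:252338-252391), had 93.7% in ntr1, 91.5% in sap114, 66.5% in cwf22, 76.1% in prp22, 78.7% in prp10 and 54.0% in prp1, against 0% and 2.96% in WT. The count of 0 in WT replicate 1 was among 68 reads, which allows a share of up to 4.41%. The 2 introns of elo1 differed strongly in WT, where one was spliced in about every other read and the other in nearly all, while in every mutant most reads of both were unspliced.

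The cysteine synthase gene cys11 has 1 intron of 145 nucleotides (locus SPBC36.04, chrII:848118-848262). Its unspliced share was 93.8% in ntr1, 95.7% in sap114, 93.5% in cwf22, 86.0% in prp22, 88.9% in prp10 and 57.6% in prp1, against 0% and 5.56% in WT. The 0 stands for 0 of 92 reads, which allows up to 3.26%, and this limit reaches into the Wilson interval of WT replicate 2, 3.13% to 9.67%. In points the gap between mutants and WT was the widest of the 10 introns, 83.2 percentage points between the group means.

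For cut6, the acetyl-CoA carboxylase gene, the intron of 622 nucleotides (locus SPAC56E4.04C, chrI:1252808-1253429) follows a coding stretch of 31 nucleotides. Its unspliced share was 94.5% in ntr1, 97.6% in sap114, 92.5% in cwf22, 90.7% in prp22, 87.8% in prp10 and 86.4% in prp1, against 14.3% and 23.8% in WT. The WT values rest on 14 and 21 reads, with Wilson 95% intervals of 4.01% to 39.9% and 10.6% to 45.1%, which stay below the lowest mutant interval bound of 78.5% in prp1. All these intervals cover counting error only, since the reads carry no molecular identifiers.

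For erg12, the mevalonate kinase gene, the intron has 249 nucleotides (locus SPAC13G6.11C, chrI:195259-195507). Its unspliced share was 90.6% in ntr1, 89.1% in sap114, 88.5% in cwf22, 84.0% in prp22, 79.4% in prp10 and 75% in prp1, against 31.3% and 34.1% in WT. It showed the smallest edgeR change of the tested 9, 3.55 ± 0.87 in log2 odds (SE). A long noncoding RNA gene, SPNCRNA.2079, covers the whole intron on the opposite strand, and SPNCRNA.4617 likewise lies opposite gnd1 introns 1 and 2 and part of intron 3. The libraries were made with a directional kit, and whether the counting used strand is not given in the sources used here, so reads of these antisense genes in the unspliced counts cannot be told apart from retained intron.

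Intron length went with the unspliced share in every library of the series. Spearman's rho between length and log2 odds over the 2514 introns was 0.265 (prp10) to 0.408 (prp1) in the mutants and 0.356 and 0.421 in WT, and between length and the change it was -0.10. These are across introns, which share libraries, depth and base composition. Medians of the unspliced share were 59.0% in the mutants and 3.44% in WT for introns of up to 50 nucleotides, and 95.7% in the mutants and 48.3% in WT for those over 500. Among the 20 tested introns longer than 500 nucleotides are gnd1 intron 3, aco1 intron 1 and elo1 intron 1. Of these 20, gnd1 intron 3 had the lowest share in WT and the largest change in log2 odds, while aco1 had rank 5 and elo1 rank 10 from the lowest WT share. The erg12 intron, with 84.4% ± 6.18 in the mutants and 32.7% ± 1.97 in WT (SD, n = 6 and n = 2), belongs to the class of 201 to 500 nucleotides, whose medians were 85.3% in the mutants and 24.9% in WT.

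**Figure D3:**
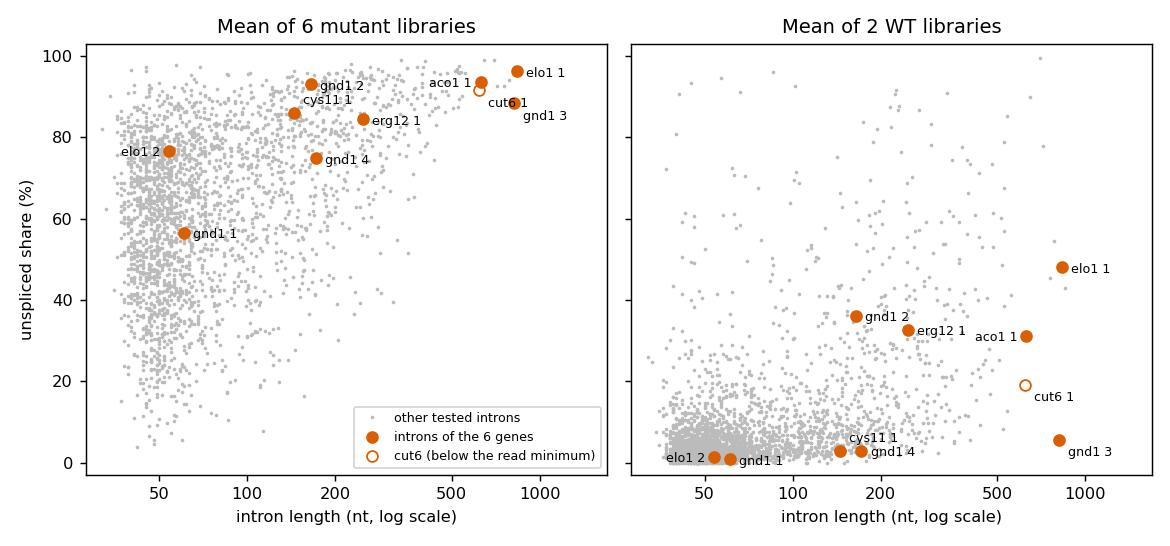
Mean unspliced share (%) against intron length (nucleotides, log scale) for the tested introns (grey) and the introns of the 6 genes (orange, labelled with gene and intron number), in the 6 mutant libraries (left) and the 2 WT libraries (right). The open circle is the cut6 intron, which had too few reads to be tested. The longest introns are high on the left, while on the right gnd1 intron 3 lies at 5.56% and elo1 intron 1 at 48.1%.

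Because nearly all introns were retained more in the mutants, each intron was also set against the median tested intron of its own library, in log2 odds. On this scale 5 of the 9 introns were higher in the mutants than in WT, gnd1 introns 1, 3 and 4, elo1 intron 2 and the cys11 intron, against a background of 8.55% of tested introns called higher. One was lower, the erg12 intron, against a background of 14.7%. The contrast is again the one the genes were chosen on, and these counts are a description. The changes were 2.89 ± 0.63 for cys11, 2.74 ± 0.77 for elo1 intron 2, 2.70 ± 0.47 for gnd1 intron 3, 2.38 ± 0.42 for gnd1 intron 1 and 1.94 ± 0.41 for gnd1 intron 4 (log2 odds with SE). For erg12 the change was -1.41 ± 0.45, which means that its lead over the typical intron was smaller in the mutants, at 1.16 to 2.31, than in WT, at 2.92 and 2.99.

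The remaining 3 tested introns kept about the same distance from the typical intron in mutants and WT. For aco1 it was 2.55 to 3.68 in the mutants and 2.59 and 3.07 in WT, and the groups overlapped. The same holds for gnd1 intron 2, at 2.22 to 3.68 in the mutants and 3.05 and 3.28 in WT, and for elo1 intron 1, at 3.62 to 5.19 in the mutants and 3.71 and 4.03 in WT. A p that misses the threshold does not show that they changed alike. The edgeR differences were 0.37 ± 0.37 for aco1, -0.11 ± 0.37 for gnd1 intron 2 and 0.36 ± 0.41 for elo1 intron 1. Without WT replicate 1, 3 of the 9 introns were higher and 0 lower, with elo1 intron 2, cys11 and erg12 lost, and over all introns the calls fell to 42 higher and 176 lower, against 215 and 370 with both. Without WT replicate 2 the counts were 5 higher and 0 lower among the 9, with erg12 lost, and 38 and 141 over all.

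**Figure D4:**
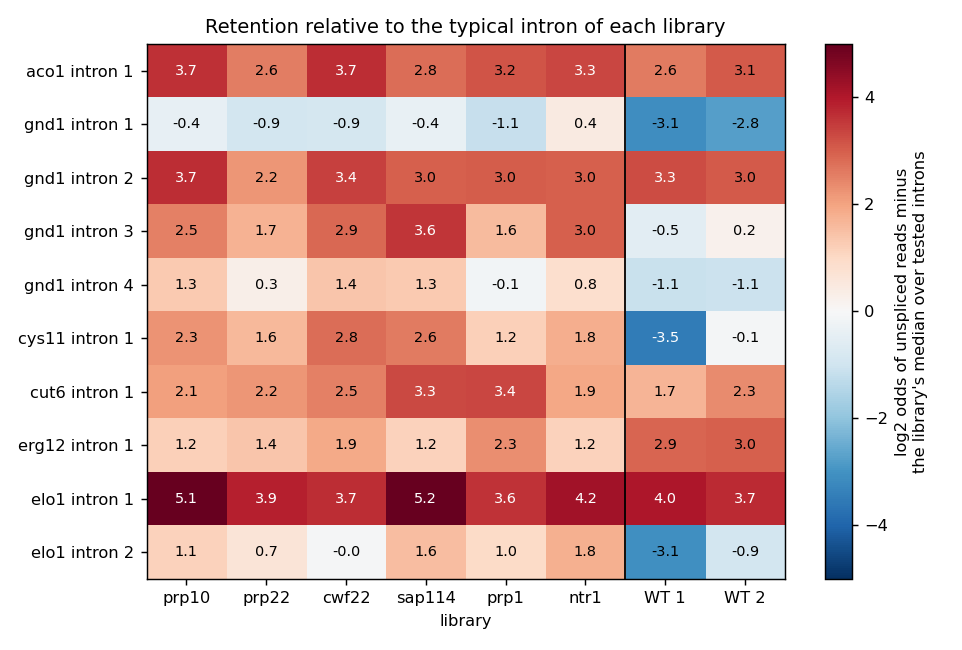
Log2 odds of an unspliced read minus the median of the library over all tested introns, for the 10 introns (rows) in the 6 mutant and 2 WT libraries (columns, WT right of the line). Red is above and blue below the typical intron. The introns of aco1 and elo1 (intron 1) and gnd1 intron 2 are red throughout, as are cut6 and erg12, while gnd1 introns 1 and 4, cys11 and elo1 intron 2 are below 0 in both WT libraries.

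Among the mutants, prp1 had the lowest unspliced share at 10 of the 10 introns, ntr1 the highest at 5 and sap114 at the other 5. How often these strains held such ranks over all tested introns was not counted, so the ranks do not set the 10 apart. Over all tested introns prp1 was likewise lowest and ntr1 highest, with medians of 81.1% in ntr1, 78.5% in sap114, 67.4% in cwf22, 66.9% in prp22, 62.4% in prp10 and 37.5% in prp1. Each strain alone was called higher than WT at 9 of 9 introns. The backgrounds were 98.8% for ntr1, 98.1% for sap114, 97.0% for cwf22, 97.5% for prp22, 95.6% for prp10 and 92.5% for prp1, and the strains share the WT libraries.

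Whether 1 strain retained an intron more or less than the other 5 mutants, beyond its overall level, was tested on log2 odds relative to the library's median. The choice of genes did not rest on this contrast but used the same mutant reads, so the test is not independent of it. Of 54 pairs of intron and strain, 0 passed edgeR's quasi-likelihood test with Benjamini-Hochberg adjustment over all introns, against a background of 0% over 15084 tests. At an unadjusted p under 0.05 there were 4 of the 54, or 7.41%, against 5.27% over all introns. DESeq2 called 0 of the 54 and 9 over all introns, and limma 0 and 0. The differences ran from -1.25 to 1.24 with a median SE of 0.577, so with 1 library per strain even the largest did not pass the adjusted test.

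The 4 pairs name different strains. Their 95% intervals use a normal approximation, which makes them too narrow with so few libraries. In ntr1, gnd1 intron 1 was 1.20 higher than in the other mutants in log2 odds (95% interval 0.287 to 2.11, adjusted p = 0.732 in edgeR). In sap114, gnd1 intron 3 was 1.24 higher (0.155 to 2.33, adjusted p = 0.771 in edgeR). In prp1, gnd1 intron 4 was lower, with a difference of -1.18 (-2.17 to -0.191, adjusted p = 0.384 in edgeR). In cwf22, elo1 intron 2 was lower, with a difference of -1.25 (-2.38 to -0.116, adjusted p = 1 in edgeR). Relative to the typical intron, prp1 was the lowest mutant at gnd1 introns 1, 3 and 4, cys11 and elo1 intron 1, and the highest at cut6, with 3.36, and erg12, with 2.31. Without setting each library against its median, prp1 was lower than the other mutants at 5 of the 9 introns. Over all 2514 tested introns 1168 were called lower, so this count does not set the 9 apart. The median difference was -2.76 over the 9 and -2.05 over all.

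Reads of a whole gene, spliced plus unspliced over its annotated introns, were next scaled to CPM (normalised counts). They contain the unspliced reads on which the genes were chosen, and grow with the length of a retained intron, so they too are a description. For aco1 there were 2708 to 5217 CPM in the mutants, against 706 and 627 in WT, and for elo1 1314 to 2643 in the mutants, against 476 and 523 in WT. The mutants lay above both WT libraries at all 5 genes that could be tested. The share of all 1611 genes with this order was not counted, so nothing is read from it. Called higher were 4 of the 5, aco1 by 2.54 ± 0.25, elo1 by 2.16 ± 0.26, cys11 by 0.83 ± 0.18 and erg12 by 0.66 ± 0.17 on the log2 scale (SE), against a background of 15.6% of 1611 genes. For gnd1 the change was 0.42 ± 0.19 (adjusted p = 0.121 in edgeR). The calls of cys11 and erg12 were lost in edgeR without WT replicate 1 (adjusted p = 0.0825 and 0.0941) and without WT replicate 2 (adjusted p = 0.0735 and 0.156), while those of aco1 and elo1 held.

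Spliced reads alone gave another picture, and 0 of the 5 genes were called in either direction in edgeR, against a background of 2.48% of 1611 genes. At an unadjusted p under 0.05 there were 2 of the 5, where 29.4% of all genes were. Scaled to the spliced reads with TMM factors, gnd1 had 12416 to 27699 CPM in the mutants, against 32672 and 35778 in WT. On that scale cys11 had 75.9 to 199 in the mutants, against 217 and 228 in WT. In these 2 genes every mutant lay below both WT libraries, with log2 changes of -0.95 (adjusted p = 0.0725) for gnd1 and -0.79 (adjusted p = 0.108) for cys11 in edgeR. How common that order is among all genes was not counted. For aco1 there were 447 to 718 CPM in the mutants, against 553 and 437 in WT, a log2 change of 0.29 (adjusted p = 0.379 in edgeR). For erg12, with a log2 change of -0.02, and for elo1, with -0.26, mutants and WT overlapped as well. All these values are shares of a pool that itself lost spliced reads in the mutants. In bulk RNA from a culture, fewer cells that use a gene and less RNA per cell cannot be told apart.

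Junctions that the annotation lacks were rare in the 6 genes apart from a few positions. There were 34 such junctions with 5775 reads over the 8 libraries, and 8 of the 34 had at least 10 reads. Against the annotated spliced reads of the gene, which are also the denominator of the choice, 0 of the 2 genes with enough reads were called, where the background was 1.32% of 227 genes. DESeq2 called 0 of the 2 as well, against 1.76%, and 1 had an unadjusted p under 0.05 in edgeR, where 20.7% of all genes had one. The log2 difference was 1.22 ± 0.42 for gnd1 (adjusted p = 0.119 in edgeR) and -1.03 ± 0.50 for elo1 (adjusted p = 0.273 in edgeR). For gnd1 the difference passed without prp1, at 1.40 (adjusted p = 0.0295 in edgeR), and with all libraries at a minimum of 1 junction read, at 1.22 (adjusted p = 0.0454 in edgeR). Most unannotated reads on the strand of gnd1, 2572, came from a single gap of 12 nucleotides in exon 5. As CPM of the spliced reads it had 561 to 844 in the mutants, against 819 and 644 in WT. The annotated spliced reads of gnd1 were lower in every mutant than in WT. How far this denominator made the difference was not tested.

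In elo1 nearly all of these reads joined the ends of 117 nucleotides inside the coding part of exon 3, named here after its values were seen. The stretch is printed because it looks like an intron, beginning with GT, ending in AG and holding a branch-like motif, and because its length is a multiple of 3. Its ends also repeat 4 bases, and whether the junction comes from splicing was not tested.
elo1 exon 3 junction, chrI:251746-251862 (minus): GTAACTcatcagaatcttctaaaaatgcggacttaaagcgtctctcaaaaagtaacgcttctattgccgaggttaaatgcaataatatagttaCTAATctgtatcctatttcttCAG
It had 13 reads in ntr1, 6 in sap114, 5 in cwf22, 23 in prp22, 13 in prp10 and 64 in prp1, against 45 and 110 in WT. As CPM of the spliced reads of the library these were 17.0 (cwf22) to 97.2 (prp1) in the mutants, against 121 and 149 in WT, so every mutant lay below WT. The share of other unannotated junctions with that order was not counted, so nothing is read from it. As a percentage of the spliced reads of intron 2 the junction stood at 39.2% ± 18.6 in the mutants and 75.1% ± 12.6 in WT (SD, n = 6 and n = 2). The table gives no unspliced reads for it, and so no share of retention.

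**Figure D5:**
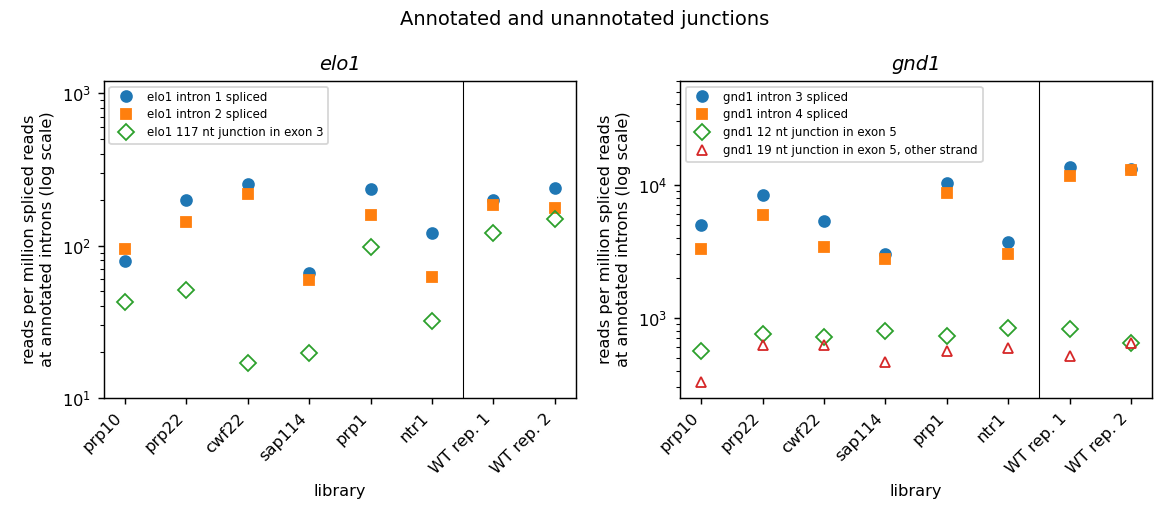
CPM of the spliced reads of each library (log scale) at annotated introns (filled) and at junctions absent from the annotation (open) of elo1 (left) and gnd1 (right), mutants left of the line and WT right of it. The open diamonds of elo1 are at 17.0 to 97.2 in the mutants and at 121 and 149 in WT. In gnd1 the filled symbols are lower in every mutant than in WT, while the mutant and WT ranges of each open symbol overlap.

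Other genes of the same pathways are given for comparison. In 6 lists of metabolic genes the tested introns of other genes numbered 35, of which 35 were called higher in the mutants and 0 lower by edgeR, a share near the background of 96.9% called higher over all tested introns. Medians of the unspliced share came to 64.6% in the mutants and 4.08% in WT for 13 introns of the citric acid cycle and pyruvate dehydrogenase, 62.3% in the mutants and 3.46% in WT for 3 of the pentose phosphate pathway, and 82.7% in the mutants and 11.3% in WT for 3 of sulfur metabolism. For fatty acid genes it was 33.9% in the mutants and 3.12% in WT over 3 introns, and for the ergosterol and mevalonate pathway 49.9% in the mutants and 5.75% in WT over 12, where the median of all tested introns was 65.3% in the mutants and 5.27% in WT. At an intron of cit1, the citrate synthase gene before aconitase in the cycle, 94.2% ± 3.73 of reads were unspliced in the mutants and 54.6% ± 7.76 in WT (SD, n = 6 and n = 2). In zwf1, glucose-6-phosphate dehydrogenase and thus the step at the head of the pathway of gnd1, the shares were 79.1% ± 19.3 in the mutants and 3.42% ± 1.33 in WT. The lowest of the pentose phosphate genes was rpe1, a ribulose-phosphate epimerase, with 17.1% ± 8.36 in the mutants and 3.46% ± 2.36 in WT.

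In sulfur metabolism, gcs1 of glutathione synthesis had 89.8% ± 10.7 in the mutants and 11.3% ± 6.34 in WT, and met14 of sulfate assimilation 39.8% ± 14.8 in the mutants and 6.59% ± 3.66 in WT. Among fatty acid genes the range ran from 80.8% ± 15.2 in the mutants and 6.13% ± 0.72 in WT for lcf1, an acyl-CoA ligase, to 20.6% ± 9.28 in the mutants and 3.12% ± 2.84 in WT for phs1, a dehydratase of chain elongation. In ergosterol synthesis, erg5, a sterol desaturase gene, had 82.5% ± 4.03 in the mutants and 35.4% ± 1.92 in WT, and intron 2 of erg27, a sterol reductase gene, had 27.8% ± 12 in the mutants and 0% in WT. The only tested intron of the glycolysis list, in the glyceraldehyde phosphate dehydrogenase gene gpd3, had 90.2% ± 9.74 in the mutants and 12.6% ± 4.13 in WT. Relative to the library's median, 5 of the 35 introns were called higher and 10 lower, where the backgrounds over all tested introns were 8.55% higher and 14.7% lower.

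For the most-read intron of each gene, the 2 most similar introns among 1391 to 1395 were sought. Near matches are found by such a choice, and no typical distance was computed, so how close they are cannot be judged. All but gnd1 intron 2 lay outside the 6 genes. Likeness was measured as the root mean square difference in log2 odds over the 8 libraries, over introns read 50 times or more in every library. For aco1 the nearest were tsr2 intron 1 (0.247) and, from the same set, gnd1 intron 2 (0.321). For gnd1 intron 3 they were dsc5 intron 1 (0.450) and cnt5 intron 3 (0.545), which are 187 and 124 nucleotides long. For erg12 they were SPAC22H10.05C intron 1 (0.322) and ura6 intron 1 (0.390), for cut6 tim14 intron 2 (0.455) and mpc1 intron 3 (0.503), for elo1 intron 1 SPCC663.15C intron 1 (0.546) and tsp0 intron 3 (0.605), and for cys11 vac8 intron 3 (0.611) and eap1 intron 1 (0.746).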

How the data were processed

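RNA-seq counts of the 8 libraries were taken from 1 deposited table of the whole series, which per the file headers gives spliced and unspliced counts per junction. STAR 2.5, bedtools 2.26 and the build ASM294v2 are named in the submitters' processing notes; for the way the authors classed a read as unspliced, the read length and the use of strand, the sources used here state nothing. Coordinates are the table's, written from 1. The reference used here is ASM294v3, and of 5143 introns on its 3 chromosomes 5134 had GT first and AG last at the table's coordinates, so its sequence was read at those coordinates. Both ends were those of an annotated intron for 5077 of the 5144.

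Introns read 20 times or more in each library were fitted with edgeR 4.0.16 (R 4.3.3), by the quasi-likelihood F test on the counts of both kinds, with a coefficient for each library and for unspliced over spliced in each group (6 residual degrees of freedom for the class, 1 for each strain against WT, 4 for each strain against the other mutants), Benjamini-Hochberg adjusted at 0.05. A lone library was assumed to vary like the others. Centred fits had the library's median log2 odds (pseudocount 0.5) as an offset. Gene totals used TMM. DESeq2 1.42.0, limma 3.58.1, other read minimums and left-out libraries were the alternatives. Fits were tested on simulated data. Python 3.11.15, numpy 2.4.6, pandas 2.3.3, scipy 1.17.1, statsmodels 0.14.6 and matplotlib 3.10.9 did the rest. Totals per intron of the WT libraries were not equal within counting error (chi-square 5771, 2513 degrees of freedom).

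The 6 genes, the pathway lists and the tests were chosen with earlier results of these data known. The introns named are all those of the 6 genes, the highest and lowest mean mutant share of each list, and the 2 introns most like the most-read intron of each gene; unannotated junctions were named after their values were seen.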

Additional observations from a re-analysis of the deposited data

Results flagged for a closer look

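On the strand opposite gnd1, 2 junctions inside its exon 5 had 1986 and 422 reads over the 8 libraries, outside the comparisons above, while another there, of 556 nucleotides, had 53. Both of the more-read ones stood higher in the mutants than in WT when set beside the spliced reads of gnd1 intron 4. For a junction of 19 nucleotides the value came to 11.9% ± 4.18 in the mutants and 4.51% ± 0.354 in WT (SD, n = 6 and n = 2), and for 1 of 462 nucleotides 3.02% ± 1.35 in the mutants and 0.884% ± 0.215 in WT. As CPM of the spliced reads of the library the junction of 19 nucleotides had 331 to 627 in the mutants, against 520 and 644 in WT, and that of 462 had 75.4 to 158 in the mutants, against 86.2 and 135 in WT, so on this scale the groups overlapped. The spliced reads of intron 4, on which the shares rest, were 2756 to 8661 CPM in the mutants, against 11697 and 12891 in WT. The junction of 19 nucleotides is shorter than the shortest tested intron, of 32 nucleotides, and 7 bases are repeated at its ends.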

How the results depend on the processing

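No paired analysis was possible because the mutant groups have 1 library each and nothing in the labels pairs a mutant with a WT library. For the introns of the 6 genes against WT, with the class or with each strain, every call kept its direction and its side of the threshold under all alternatives run. Over all introns, 1369 of 1400 were called higher in the class with a minimum of 50 reads. With 1 read 3835 of 4100 were, against 2437 of 2514 in the fit above. A minimum of 50 reads gave 1392 for ntr1, 1389 for sap114, 1384 for cwf22, 1387 for prp22, 1382 for prp10 and 1361 for prp1. A minimum of 1 read gave 3828 for ntr1, 3746 for sap114, 3721 for prp22, 3576 for cwf22, 3429 for prp10 and 3119 for prp1. The fits above gave 2484 for ntr1, 2467 for sap114, 2450 for prp22, 2439 for cwf22, 2403 for prp10 and 2326 for prp1. Those fits tested 2514 introns, so the share called was smaller at 1 read in every strain, and smallest in prp1. Relative to the library's median, 381 and 356 were higher by limma (pseudocounts 0.5 and 1) and 352 with a minimum of 1 read, against 215; leaving out 1 library gave 38 to 306 higher and 141 to 446 lower. In prp1, 1 intron was lower than WT, and 0 by DESeq2 and both limma fits. The change of gnd1 intron 2 turned positive with limma at a pseudocount of 1 (0.075) and with a minimum of 1 read (0.17), and ran from -0.23 (without prp10) to 0.058 (without prp22) as 1 library was left out. The erg12 call was lost with a minimum of 1 read (adjusted p = 0.0785) and without either WT replicate (adjusted p = 0.124 and 0.189). The median change over all introns without 1 WT replicate was 5.95 to 6.07 for ntr1, 5.69 to 5.83 for sap114, 4.88 to 5.07 for cwf22, 4.78 to 4.89 for prp22, 4.59 to 4.76 for prp10 and 3.07 to 3.22 for prp1; no residual degrees of freedom were left for a test.

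Against the other mutants, DESeq2 called 1 intron higher in prp10, 2 higher and 1 lower in sap114, and 4 higher and 1 lower in prp1, where no centring gave 1168 lower. Leaving out 1 library gave 0 to 2 higher in sap114, and 0 to 2 higher and 0 to 1 lower in prp1. For gene totals, spliced reads alone gave 23 higher and 17 lower, against 251 and 128, with -0.022 for erg12, -0.26 for elo1, -0.79 for cys11 and -0.95 for gnd1. Without 1 library there were 60 to 283 higher and 7 to 217 lower; the calls of erg12 and cys11 were lost without either WT replicate. For unannotated junctions, DESeq2 gave 2 genes higher, a minimum of 1 read 10 higher and 9 lower, alternative sites alone 2 higher, and leaving out 1 library 0 to 8 higher and 0 to 7 lower. In gnd1 the difference passed with a minimum of 1 read (1.22, adjusted p = 0.0454). The cause was not tested. Depth limits cut6 most, with 14 and 21 reads in WT.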

Other observations

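On the strand of gnd1 itself a gap of 12 nucleotides in exon 5 was the most-read unannotated junction of the 6 genes, with 2572 reads. It had 561 to 844 CPM of the spliced reads in the mutants, against 819 and 644 in WT, and its ends repeat 5 bases. Beside the spliced reads of intron 4 the value came to 16% ± 5.83 in the mutants and 5.65% ± 1.26 in WT (SD, n = 6 and n = 2). A junction of 132 nucleotides in the same exon, beginning with GT and ending in AG, had 59.0 to 124 CPM in the mutants, against 116 and 138 in WT, where the groups overlapped. The ends of this junction repeat 6 bases.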
